A study of Rattus norvegicus with 10 samples.

Results

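Rat knee cartilage taken 10 weeks after a papain injection and treated with a control vector was compared with cartilage of healthy, untreated rats, over all genes. The members are the 5 libraries whose table columns carry these group names, out of 10 in the series: 3 from diseased joints (SHAM) and 2 from healthy joints (HC). SHAM knees were injected with papain plus L-cysteine, and an adeno-associated virus carrying green fluorescent protein (GFP) followed at week 4. HC joints received neither papain nor vector, so papain, vector and the weeks since injection cannot be told apart in this comparison. A further 3 libraries, taken 4 weeks after papain without any vector (OAC), are used only to set the late values beside earlier ones. All rats carried the label of 5 months of age, and the labels do not say if each library is its own animal, so p-values reflect only how these libraries vary, which may be technical. The RNA came from joint surface cut off with a blade, so a library can hold cells from beneath or beside the cartilage.

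Articular cartilage is built by a single resident cell type, the chondrocyte, which embeds itself in type II collagen fibrils and in aggrecan, the proteoglycan that holds water. Papain is a plant protease that strips proteoglycan from this matrix, and its injection is used as a chemical model of osteoarthritis. Healthy cartilage holds no vessels and few immune cells, whereas the bone below it holds marrow, osteoclasts and vessels. Interferon-gamma, a cytokine of T and NK cells, acts on chemokines that bind the receptor CXCR3, on guanylate-binding proteins and on antigen presentation.

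Values are FPKM, a level scaled to transcript length and library size, given in the order of replicates 1 and 2 for HC and 1, 2 and 3 for SHAM. Log2 changes are differences of log2(FPKM + 1), SHAM minus HC, with a standard error (SE) and a Benjamini-Hochberg adjusted p from limma over 11282 genes. A gene is called at an adjusted p under 0.05. Changes given as fold are ratios of mean FPKM. Recovered depth ran from about 52400000 to 65300000 reads in these 5 libraries, and 32100000 to 40600000 reads lay on listed genes.

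The libraries differed in tissue beside the cartilage. Genes of skeletal muscle took 9.09% of the reads on listed genes in HC replicate 1 and 1.57% in SHAM replicate 3, against 0.0637 to 0.11% in the other 3 libraries. Myh4, a myosin of fast muscle, stood at 1917 and 0.448 FPKM in HC and 2.57, 1.06 and 365 FPKM in SHAM. Both groups therefore hold a library rich in muscle, at unlike shares. Limma called 0 of 34 tested muscle markers (0 also by voom on recovered reads), with 1 at an unadjusted p under 0.05. The median log2 change of these markers was -2.09. With HC libraries this far apart, the lack of calls does not show that muscle was balanced between the groups. Without HC replicate 2, which leaves the muscle-rich library as the only healthy one, 7 muscle markers were called lower and their median was -5.04. The 10 defining chondrocyte markers were present in every library and summed to 4513 to 7889 FPKM in HC and 5529.8 to 8715 FPKM in SHAM, and keratinocyte markers summed to less than 1 FPKM in each. Counts of 4 or more called list members are also given without a library where leaving out that 1 library moves them by more than 1.5 times.

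Late disease differed from healthy cartilage in 2986 of 11282 tested genes, or 26.5%, with 2368 genes higher (21.0%) and 618 lower (5.48%). Of the called genes, 913 differed by at least 1 on the log2 scale, 801 of them higher and 112 lower in SHAM. Libraries of the groups did not overlap for 51.2% of the tested genes. The median change over all tested genes was 0.10, and it was -0.03 after median-of-ratios scaling and -0.05 after quantile normalization. The share of higher genes among the called depended on this scaling, from 79.3% to 57.3% and 56.4%. In the authors' deposited table, 2960 genes differed at an adjusted p under 0.05, 1767 of them higher in SHAM and 1193 lower.

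Genes that interferon-gamma induces led the rises in SHAM, with Ubd, Cxcl9, Cxcl10 and Gbp2 showing the 4 largest changes among the named genes. Of 18 tested genes in a list of CXCR3 ligands and interferon-gamma targets, 16 rose, 0 fell and 2 did not pass, with a median log2 change of 2.04. Ubd, a ubiquitin-like modifier that sends proteins to the proteasome (NM_053299, chromosome 20 from 1876176 to 1878126 in rn6), stood at 0.441 and 0 FPKM in HC and 66.2, 64.9 and 42.8 FPKM in SHAM (log2 change 5.59, SE 0.33, adjusted p = 4.8e-05). It was close to absent in both healthy libraries and abundant in each diseased one. Gbp2, a guanylate-binding protein that acts against microbes inside cells (NM_133624, chromosome 2 from 248276795 to 248293784 in rn6), stood at 5.75 and 6.36 FPKM in HC and 153, 123 and 84.0 FPKM in SHAM, a 19.8-fold rise (log2 change 4.06, SE 0.24, adjusted p = 4.8e-05).

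The ligands of CXCR3, which draw T and NK cells, moved together. Cxcl9 stood at 0.716 and 0.468 FPKM in HC and 41.1, 101 and 37.9 FPKM in SHAM (log2 change 5.12, SE 0.47, adjusted p = 0.00027). Cxcl10 (NM_139089, chromosome 14 from 17210733 to 17212930 in rn6) stood at 0.739 and 0.292 FPKM in HC and 32.7, 29.0 and 19.4 FPKM in SHAM (log2 change 4.19, SE 0.25, adjusted p = 4.8e-05). Cxcl11 was listed at 0 and 0 FPKM in HC and at 13.3, 16.3 and 6.75 FPKM in SHAM, with an adjusted p of 0.00019. Among the SHAM libraries, replicate 2 had the highest Cxcl9 and replicate 3 the lowest Cxcl11. These ligands are among the largest rises, which were picked only from genes without overlap between SHAM and HC libraries. Their lack of overlap is therefore no separate result.

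Transcription factors and signalling genes of the same pathway were higher too. Irf1, a transcription factor that interferon-gamma induces, stood at 9.85 and 10.8 FPKM in HC and 37.9, 45.2 and 46.0 FPKM in SHAM, a 4.16-fold rise. Ciita, the master regulator of MHC class II genes, rose 3.26-fold, from 2.20 and 1.74 FPKM in HC to 4.41, 8.21 and 6.64 FPKM in SHAM. Igtp and Irgm, GTPases of host defence, rose by 3.09 and 2.14 on the log2 scale. The members that did not pass were Ifngr1, a chain of the interferon-gamma receptor, with a log2 change of 0.38, and Cd274, an inhibitory ligand of T cells, with 0.20. Ifngr1 passed without SHAM replicate 1 (adjusted p = 0.029).

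**Figure D1:**
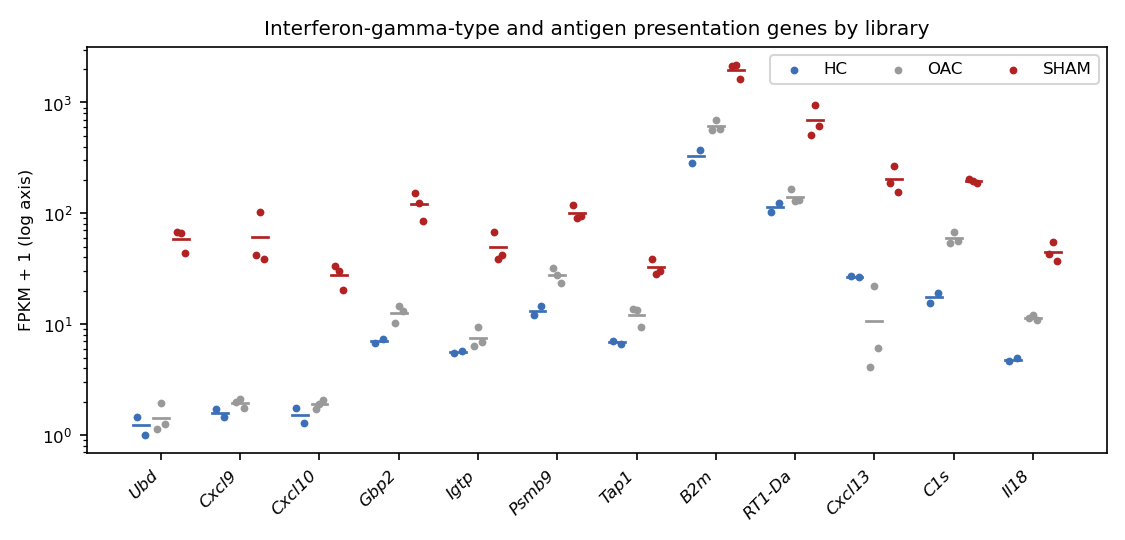
FPKM + 1 on a log axis for 12 genes in the HC (2 points), OAC (3 points) and SHAM (3 points) libraries, with the group mean as a bar. For Ubd, Cxcl9 and Cxcl10 the OAC points lie at or near the HC points and the SHAM points lie far above both, and for C1s and Il18 the OAC points lie between.

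The promoters of these genes are shown because several of them carry the letters by which interferon factors are known to bind. Windows of 300 bases, 250 before to 50 after the start, come from RefSeq in the build GRCr8 and differ in build from the deposited positions. Capitals mark GAAANNGAAA, the core of an interferon-stimulated response element, in the windows of Cxcl10 (chr14:15988816-15989115, plus strand), Gbp2 (chr2:234005477-234005776, plus strand) and Tap1 (chr20:4668494-4668793, minus strand). In the window of Cxcl9 (chr14:16006916-16007215, plus strand) capitals mark TTCNNNGAA, the gamma-activated site of interferon-gamma signalling, which lies after the start there.
Cxcl10: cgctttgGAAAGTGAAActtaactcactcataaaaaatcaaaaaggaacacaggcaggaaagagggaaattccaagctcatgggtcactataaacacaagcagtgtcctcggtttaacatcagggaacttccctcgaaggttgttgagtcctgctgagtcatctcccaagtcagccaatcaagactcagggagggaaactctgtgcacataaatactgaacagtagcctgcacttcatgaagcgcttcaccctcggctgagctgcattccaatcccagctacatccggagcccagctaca
Gbp2: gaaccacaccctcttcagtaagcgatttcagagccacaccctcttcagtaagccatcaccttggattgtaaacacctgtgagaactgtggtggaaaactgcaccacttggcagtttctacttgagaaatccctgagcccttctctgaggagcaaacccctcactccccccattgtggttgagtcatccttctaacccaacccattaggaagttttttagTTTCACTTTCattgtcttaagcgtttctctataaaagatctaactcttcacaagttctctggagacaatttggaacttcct
Tap1: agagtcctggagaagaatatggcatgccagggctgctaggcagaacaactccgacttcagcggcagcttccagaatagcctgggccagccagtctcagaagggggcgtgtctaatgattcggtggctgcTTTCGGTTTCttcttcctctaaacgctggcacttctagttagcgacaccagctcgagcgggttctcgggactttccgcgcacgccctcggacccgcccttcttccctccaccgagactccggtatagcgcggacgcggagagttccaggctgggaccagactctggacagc
Cxcl9: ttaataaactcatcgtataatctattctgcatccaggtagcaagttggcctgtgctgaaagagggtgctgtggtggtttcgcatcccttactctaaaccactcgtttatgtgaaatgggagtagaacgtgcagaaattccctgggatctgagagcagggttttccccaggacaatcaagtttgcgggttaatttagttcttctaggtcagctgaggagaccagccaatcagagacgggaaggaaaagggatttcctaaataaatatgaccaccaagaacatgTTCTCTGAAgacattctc

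Both motifs were searched on both strands in all 33469 windows. GAAANNGAAA was found in 3.92% of all windows and TTCNNNGAA in 8.87%. Of the 16 windows matched to the 18 tested interferon-gamma genes, 7 held GAAANNGAAA (Cxcl10, Gbp2, Gbp4, Gbp5, Igtp, Irgm and Socs1) and 7 held TTCNNNGAA (Cxcl9, Cxcl11, Irf1, Irf8, Igtp, Irgm and Socs1). In 10 windows of antigen processing genes, 6 held GAAANNGAAA (Psmb8, Psmb10, Psme2, Tap1, Tapbp and B2m) and 1 held TTCNNNGAA, that of Psmb8. The marked matches in the printed windows do not overlap a match of the other motif. In 19 windows of type I interferon genes, 12 held GAAANNGAAA (63.2%) and 5 held TTCNNNGAA, against 43.8% for each motif in the interferon-gamma windows. A match describes the letters and is not a measured site.

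Antigen processing and presentation rose in most of its parts. Of 12 tested genes of the immunoproteasome and of peptide loading, 10 rose and 0 fell, with a median of 1.20. Psmb8, a catalytic subunit that replaces its constitutive counterpart in the immunoproteasome, stood at 6.76 and 7.46 FPKM in HC and 50.9, 53.4 and 49.8 FPKM in SHAM (log2 change 2.69, SE 0.088, adjusted p = 3.6e-06). Its SHAM values lay close together, 7.22-fold above the healthy mean. Psmb9, a second such subunit, rose 8.18-fold, from 11.0 and 13.5 FPKM to 117, 90.4 and 93.1 FPKM. Tap1, which carries peptides into the endoplasmic reticulum, stood at 6.10 and 5.66 FPKM in HC and 37.7, 27.5 and 29.4 FPKM in SHAM. B2m, the light chain of MHC class I, stood at 284 and 372 FPKM in HC and 2135, 2156 and 1634 FPKM in SHAM, 6.02-fold higher in SHAM.

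Of 22 tested genes of the rat MHC and its class II partners, 18 rose and 0 fell, with a median of 1.86. RT1-Da, the class II alpha chain that corresponds to DR, stood at 103 and 123 FPKM in HC and 503, 945 and 616 FPKM in SHAM (log2 change 2.55, SE 0.34, adjusted p = 0.0014). Cd74, the invariant chain of class II, stood at 299 and 326 FPKM in HC and 994, 2006 and 1519 FPKM in SHAM (log2 change 2.21, SE 0.31, adjusted p = 0.0016). SHAM replicate 2 was the highest library for RT1-Da, RT1-Ba and Cd74, and also for the macrophage marker Lyz2. The class I gene RT1-A2 stood at 32.7 and 63.4 FPKM in HC and 318, 240.2 and 225 FPKM in SHAM. Rat class I genes are near-identical copies, so how their reads were divided among them is uncertain.

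Type I interferon genes moved less. In that list 14 of 28 tested members rose and 0 fell, with a median of 0.59. The count was 8 without HC replicate 1, 9 without SHAM replicate 1 and 9 without SHAM replicate 2. Ifi47, an interferon-induced GTPase, led the list at 5.72 and 5.25 FPKM in HC and 51.3, 45.4 and 38.6 FPKM in SHAM (log2 change 2.82, SE 0.17, adjusted p = 4.8e-05). Bst2, which tethers enveloped viruses to the cell, rose 2.67-fold. Several well known members did not pass, among them Isg15, a ubiquitin-like protein, at 2.78 and 8.73 FPKM in HC and 12.7, 8.20 and 8.85 FPKM in SHAM, and Mx1, an antiviral GTPase, at 2.02 and 3.69 FPKM in HC and 6.04, 3.86 and 2.89 FPKM in SHAM. The groups overlapped for both, and Isg15 passed without HC replicate 2 (adjusted p = 0.027).

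Markers of immune cells rose in the same libraries as these genes, and their part in the result was not tested. In bulk RNA a change in the number of cells of a type and a change in RNA per cell cannot be told apart. Of 25 tested macrophage markers 23 rose, 0 fell and 2 did not pass, and their summed level was 1136 to 1379 FPKM in HC and 5726 to 9230.3 FPKM in SHAM. Lyz2, the lysozyme of macrophages and neutrophils, stood at 904 and 676 FPKM in HC and 5102, 7129 and 4104 FPKM in SHAM (log2 change 2.76, SE 0.30, adjusted p = 0.00056). Fcgr3a, a receptor for antibody, stood at 1.57 and 2.25 FPKM in HC and 56.5, 41.4 and 28.1 FPKM in SHAM (log2 change 3.84, SE 0.59, adjusted p = 0.0025). Marco, which marks some tissue macrophages, was at 0 in both HC libraries and in SHAM replicates 2 and 3.

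In T and NK cell markers 19 of 28 rose and 1 fell, and the summed level was 70.5 to 71.2 FPKM in HC and 206 to 234 FPKM in SHAM. Cd2, an adhesion protein of T and NK cells, stood at 0.807 and 0.873 FPKM in HC and 3.77, 3.18 and 5.50 FPKM in SHAM, and Nkg7, a granule protein of cytotoxic cells, at 21.0 and 18.6 FPKM in HC and 55.3, 67.6 and 93.7 FPKM in SHAM. The count of T and NK markers that rose fell to 11 without HC replicate 1, 12 without HC replicate 2, 11 without SHAM replicate 1 and 11 without SHAM replicate 3. Cd28, a costimulatory receptor of T cells, was the member that fell, with a log2 change of -0.73 and an adjusted p of 0.071 without HC replicate 2. Il7r, a receptor of lymphocytes, was listed at 0 in all 5 libraries.

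Chemokines beyond the CXCR3 ligands were higher. In that list 14 of 24 tested members rose and 0 fell, with a median of 1.39. Cxcl13, which guides B cells into lymphoid follicles, stood at 26.1 and 25.4 FPKM in HC and 187, 264 and 154 FPKM in SHAM (log2 change 2.88, SE 0.67, adjusted p = 0.014), and its adjusted p was 0.0502 without HC replicate 2. Ccl2, which draws monocytes, stood at 2.45 and 3.10 FPKM in HC and 29.4, 22.4 and 13.1 FPKM in SHAM, a 7.80-fold rise. Both the ligand Cxcl12 and its receptor Cxcr4 rose, with log2 changes of 1.31 and 1.70.

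Of 26 tested inflammatory cytokines and NF-kB feedback genes 19 rose and 1 fell. The count of higher members was 10 with HC replicate 1 and SHAM replicate 3 both left out. Il18, a cytokine that raises interferon-gamma output, stood at 3.62 and 3.97 FPKM in HC and 41.6, 54.0 and 36.3 FPKM in SHAM (log2 change 3.21, SE 0.35, adjusted p = 0.00056). Tnfaip6, a hyaluronan-binding protein induced by inflammation, stood at 6.87 and 9.57 FPKM in HC and 133, 86.9 and 46.2 FPKM in SHAM, highest in SHAM replicate 1. Il1b, the cytokine that drives cartilage breakdown in culture, rose 3.73-fold from a low level, 1.47 and 0.887 FPKM to 3.56, 5.77 and 3.83 FPKM. Il1rn, which blocks its receptor, rose 6.14-fold. Il1r1, that receptor, was the member that fell, at 17.0 and 31.4 FPKM in HC and 11.8, 14.3 and 12.7 FPKM in SHAM (adjusted p = 0.031). Its call was lost without HC replicate 2 (adjusted p = 0.14) and without SHAM replicate 1 (0.079), 2 (0.056) or 3 (0.073). Ptgs2, the inducible prostaglandin synthase, did not pass, at 0.988 and 0.996 FPKM in HC and 0.942, 1.83 and 1.12 FPKM in SHAM.

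Most of the tested complement genes were higher. Of 25 tested members 18 rose and 0 fell, with a median of 1.53. C1s, the serine protease of the first complement complex (NM_138900, chromosome 4 from 157143592 to 157155596 in rn6), stood at 14.5 and 18.3 FPKM in HC and 204, 193 and 188 FPKM in SHAM (log2 change 3.50, SE 0.13, adjusted p = 6.2e-06). Its SHAM values lay close together and far above HC. C3, the central component, stood at 8.45 and 4.55 FPKM in HC and 36.1, 36.5 and 37.3 FPKM in SHAM, a 5.63-fold rise. C4a and C4b are near copies of each other, and both were called higher.

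Chi3l1, a chitinase-like glycoprotein secreted by chondrocytes and macrophages, stood at 113 and 128 FPKM in HC and 1137, 1394 and 1203 FPKM in SHAM (log2 change 3.36, SE 0.31, adjusted p = 0.00027). It was abundant in healthy cartilage and 10.3-fold higher in late disease. Pla2g2d, a secreted phospholipase, rose 11.5-fold. In the plasminogen and clotting list 8 of 18 tested members rose and 0 fell. That count was 4 without HC replicate 1, 5 without SHAM replicate 1 and 4 without SHAM replicate 2. Plaur, the receptor of the plasminogen activator urokinase, stood at 4.57 and 3.63 FPKM in HC and 11.2, 15.3 and 14.8 FPKM in SHAM.

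**Figure D2:**
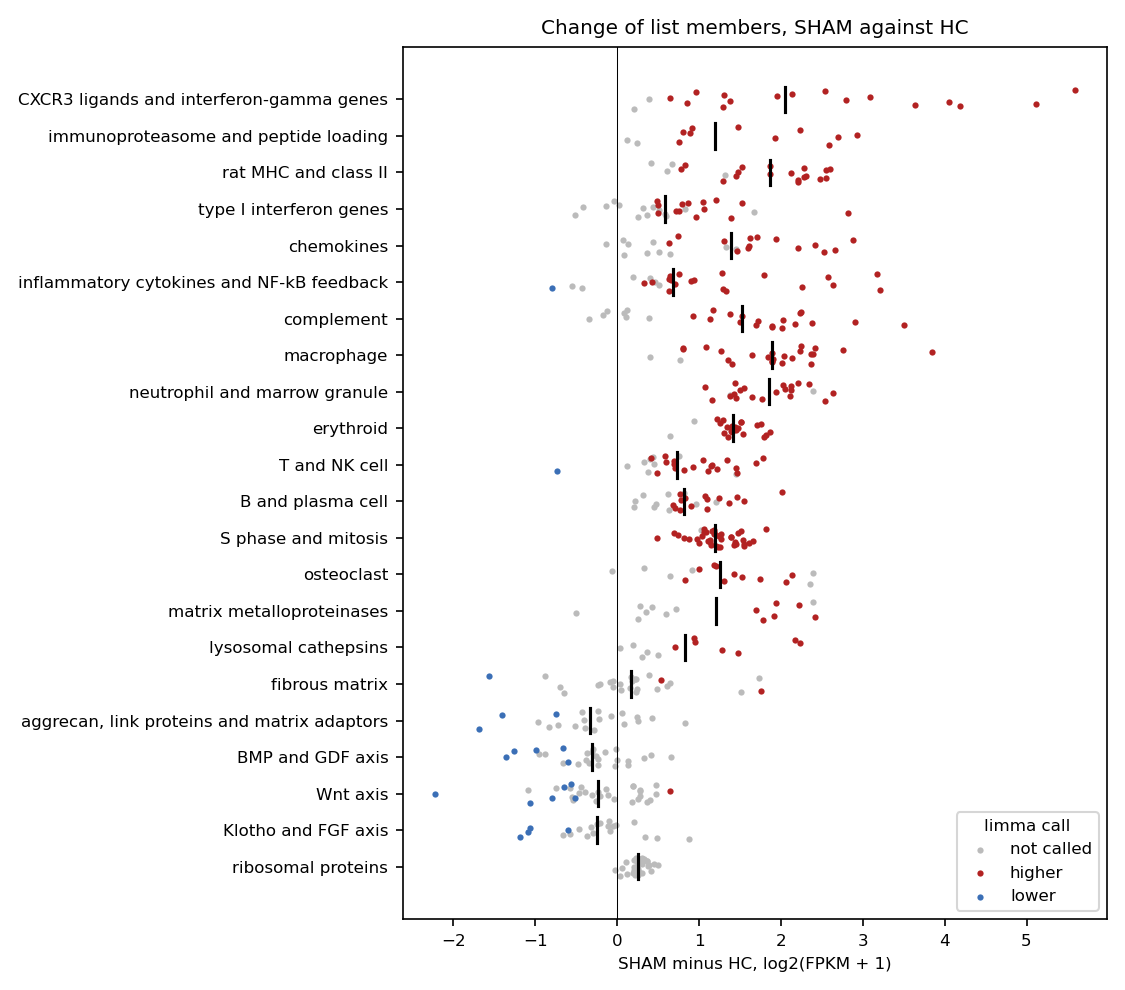
Log2 change SHAM minus HC of each tested member of 22 gene lists, with called higher genes in red, called lower genes in blue, uncalled genes in grey and the list median as a black bar. Immune, marrow and proliferation lists lie to the right of 0, while the aggrecan, BMP, Wnt and FGF lists have medians below 0.

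Markers of blood and bone marrow cells were higher as a body. Of 22 tested neutrophil and granule markers 20 rose and 0 fell, with a summed level of 3027 to 3952 FPKM in HC and 14227 to 18255 FPKM in SHAM. S100a8, a calcium-binding protein that neutrophils hold in bulk, stood at 1017 and 822 FPKM in HC and 4466, 4413 and 5019.7 FPKM in SHAM (log2 change 2.34, SE 0.33, adjusted p = 0.0017). In the erythroid list 21 of 23 rose, with a summed level of 21880.1 to 23159.5 FPKM in HC and 49284 to 66757 FPKM in SHAM, and 10 rose without HC replicate 2. Ahsp, which stabilises alpha globin in erythroblasts, stood at 211 and 94.4 FPKM in HC and 477, 527 and 467 FPKM in SHAM. Rhd, a red cell membrane protein, stood at 20.7 and 10.2 FPKM in HC and 48.2, 52.5 and 53.5 FPKM in SHAM. In both lists every SHAM library lay above both HC libraries in summed level.

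Platelet, mast cell and B cell markers followed the same direction. Of 9 platelet and megakaryocyte markers 8 rose, and 5 without HC replicate 2. Their summed level was 103 to 193 FPKM in HC and 392 to 612 FPKM in SHAM. Of 25 B and plasma cell markers 15 rose, with a summed level of 243 to 339 FPKM in HC and 415 to 479 FPKM in SHAM, and 8 rose with HC replicate 1 and SHAM replicate 3 both left out. Vpreb3, a protein of B cell precursors, stood at 3.73 and 5.04 FPKM in HC and 28.9, 18.2 and 16.3 FPKM in SHAM, and Rag1, which rearranges antigen receptor genes in precursors, rose by 1.24 on the log2 scale. Of 10 mast cell and basophil markers 4 rose, among them Cma1, a chymase, at 3.94 and 2.20 FPKM in HC and 14.4, 26.8 and 11.9 FPKM in SHAM. Mcpt10, a further granule protease, stood at 26.1 and 9.91 FPKM in HC and 85.3, 118 and 60.8 FPKM in SHAM (log2 change 2.32), and its change was 2.98 without HC replicate 1 and 1.67 without HC replicate 2.

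Genes of cell division rose with the marrow markers, and the part of those cells in that rise was not tested. Of 40 tested genes of S phase and mitosis 39 rose and 0 fell, with a median of 1.20. The median was 1.46 without HC replicate 1 and 0.95 without HC replicate 2. Mki67, present in dividing cells, stood at 13.5 and 6.06 FPKM in HC and 23.0, 29.0 and 30.1 FPKM in SHAM (log2 change 1.48, SE 0.29, adjusted p = 0.0073). Ube2c, which marks mitotic proteins for breakdown, stood at 12.7 and 6.98 FPKM in HC and 30.3, 35.9 and 42.5 FPKM in SHAM. HC replicate 2 was below HC replicate 1 for both. Endothelial markers did not rise: 0 of 21 was higher and 2 were lower. Those 2 were Lyve1, which also marks resident macrophages of tissue, at 7.57 and 9.13 FPKM in HC and 1.63, 3.32 and 2.88 FPKM in SHAM, and Ramp2, a partner of peptide hormone receptors, with a log2 change of -1.31 and an adjusted p of 0.051 without HC replicate 2.

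Among macrophage genes of lipid handling and residency, 9 of 22 rose and 2 fell. Trem2, a lipid receptor of macrophages, stood at 6.28 and 5.83 FPKM in HC and 29.6, 51.0 and 33.2 FPKM in SHAM, and Gpnmb, a glycoprotein of lipid-laden macrophages and osteoclasts, at 31.3 and 42.1 FPKM in HC and 129, 139 and 108 FPKM in SHAM. Apoe, which carries cholesterol out of cells, did not pass, with a log2 change of 0.80. The member with the largest fall was Lyve1, and Lpl, the lipase that releases fatty acids, fell by 0.94 on the log2 scale.

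**Figure D3:**
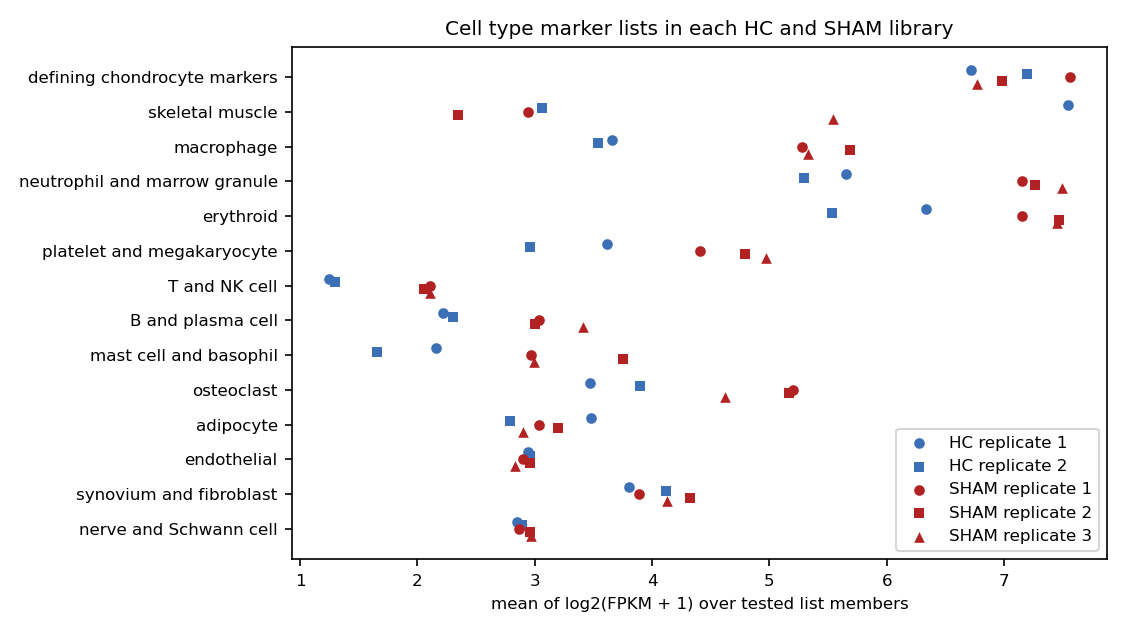
Mean log2(FPKM + 1) over the tested members of 14 marker lists in each HC (blue) and SHAM (red) library. The muscle list separates HC replicate 1 and SHAM replicate 3 from the other libraries, while the macrophage, neutrophil, erythroid and platelet lists separate the SHAM from the HC libraries.

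Matrix metalloproteinases (MMPs), which cut collagen and proteoglycan, were partly higher. Of 14 tested members 6 rose and 0 fell, with a median of 1.21. Mmp3, a stromelysin that degrades proteoglycan, stood at 21.4 and 34.8 FPKM in HC and 105, 175 and 124 FPKM in SHAM (log2 change 2.22, SE 0.28, adjusted p = 0.00092). Mmp12, an elastase of macrophages, stood at 0.606 and 0.206 FPKM in HC and 9.33, 4.49 and 6.19 FPKM in SHAM, and Mmp8, the collagenase of neutrophils, at 43.2 and 20.8 FPKM in HC and 105, 137 and 114 FPKM in SHAM. All SHAM libraries lay above HC for each of these genes. Mmp14, a membrane-bound collagenase, did not pass, with a log2 change of 0.59.

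Mmp13, a collagenase with type II collagen as its main substrate (NM_133530, chromosome 8 from 5522739 to 5533018 in rn6), stood at 71.6 and 67.9 FPKM in HC and 341, 413 and 133 FPKM in SHAM (log2 change 1.91, SE 0.60, adjusted p = 0.046). SHAM replicate 3 lay well below the other SHAM libraries but above HC. The call was lost without HC replicate 1 (adjusted p = 0.11), HC replicate 2 (0.13), SHAM replicate 1 (0.11) or SHAM replicate 2 (0.13). Mmp9, a gelatinase of neutrophils and osteoclasts, missed the threshold at 28.0 and 37.6 FPKM in HC and 278, 249 and 77.1 FPKM in SHAM (adjusted p = 0.051), and passed without SHAM replicate 3 (0.03), with a pseudocount of 0.1 (0.049), with a filter at 2 FPKM (0.049) and with the SHAM and HC libraries alone (0.04). The aggrecanases did not pass: Adamts4 stood at 0.255 and 0.347 FPKM in HC and 0.494, 0.469 and 0.207 FPKM in SHAM and Adamts5 at 2.38 and 3.26 FPKM in HC and 1.88, 2.70 and 2.72 FPKM in SHAM, with overlap between the groups for both. In the wider ADAM and ADAMTS list 2 of 16 rose and 1 fell (1 rose without either HC library, SHAM replicate 1 or SHAM replicate 2), with Adam19, a membrane-bound sheddase, at 1.97 and 1.42 FPKM in HC and 3.85, 5.57 and 4.91 FPKM in SHAM.

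Of 18 tested protease inhibitors 6 rose and 0 fell, and 2 fell without HC replicate 1. Timp1, which inhibits MMPs, stood at 63.5 and 106 FPKM in HC and 199, 199.8 and 150.2 FPKM in SHAM (log2 change 1.13, SE 0.24, adjusted p = 0.011). Serpinb1a, an inhibitor of neutrophil proteases, stood at 29.7 and 30.4 FPKM in HC and 98.1, 123 and 161 FPKM in SHAM, a 4.24-fold rise. Of 12 lysosomal cathepsins 7 rose. Ctss, the cathepsin that processes the invariant chain in antigen-presenting cells, stood at 35.9 and 28.8 FPKM in HC and 119, 221 and 141 FPKM in SHAM, and Ctsz at 28.3 and 34.1 FPKM in HC and 156, 148 and 126 FPKM in SHAM. Ctsd, which most cells express, did not pass, with a log2 change of 0.36.

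Osteoclasts resorb bone and calcified cartilage. In that list 10 of 16 tested members rose and 0 fell, with a median of 1.25 and a summed level of 431 to 747 FPKM in HC and 1334 to 2918 FPKM in SHAM. Only 4 rose without HC replicate 1, and 5 each without SHAM replicate 1 or SHAM replicate 2. Ctsk, the collagen-degrading cathepsin of osteoclasts, stood at 98.6 and 294 FPKM in HC and 1072, 931 and 429 FPKM in SHAM (log2 change 2.14, SE 0.68, adjusted p = 0.046). Its call was lost without HC replicate 1 (adjusted p = 0.23), SHAM replicate 1 (0.12) or SHAM replicate 2 (0.12), while its log2 change was 2.92 without HC replicate 2. Acp5, the acid phosphatase by which osteoclasts are stained, did not pass at 75.8 and 205 FPKM in HC and 884, 957 and 312 FPKM in SHAM (adjusted p = 0.088). Car2, which supplies acid for resorption and is also abundant in red cells, was higher in every SHAM library at 120.4 and 56.9 FPKM in HC and 293, 290.0 and 258 FPKM in SHAM.

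Receptor Csf1r, on which osteoclasts and macrophages depend, rose 3.22-fold, and its ligand Csf1 rose 1.95-fold. Tnfrsf11b, the decoy receptor osteoprotegerin that restrains osteoclasts, fell, at 328 and 453 FPKM in HC and 255, 199 and 218 FPKM in SHAM (log2 change -0.79, SE 0.17, adjusted p = 0.012), and its adjusted p was 0.057 without HC replicate 2. In osteoblast and osteocyte genes 1 of 19 rose and 3 fell, and 1 fell without HC replicate 1, HC replicate 2, SHAM replicate 2 or SHAM replicate 3. Ibsp, a mineral-binding sialoprotein, stood at 209 and 364 FPKM in HC and 839.6, 804 and 663 FPKM in SHAM and lost its call without HC replicate 1 (adjusted p = 0.14), SHAM replicate 1 (0.067) or SHAM replicate 2 (0.074). Sost, a Wnt inhibitor of osteocytes, was among those that fell, at 80.7 and 109 FPKM in HC and 43.0, 27.4 and 51.6 FPKM in SHAM. Sost lost its call without HC replicate 1 (adjusted p = 0.051), HC replicate 2 (0.14), SHAM replicate 1 (0.062) or SHAM replicate 2 (0.1). Runx2 and Vegfa, tied to chondrocyte hypertrophy, did not pass, at 11.5 and 16.6 FPKM in HC and 14.1, 11.5 and 13.6 FPKM in SHAM for Runx2 and 90.0 and 108 FPKM in HC and 114, 101 and 90.1 FPKM in SHAM for Vegfa.

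The genes that make cartilage did not move as a block. Col2a1, the chain of type II collagen (NM_012929, chromosome 7 from 139455242 to 139483997 in rn6), stood at 727 and 1213 FPKM in HC and 3553, 2054 and 1884 FPKM in SHAM (log2 change 1.35, SE 0.41, adjusted p = 0.039). Each SHAM library exceeded both HC libraries, but the call was lost without HC replicate 1 (adjusted p = 0.18), SHAM replicate 1 (0.095) or SHAM replicate 2 (0.071). Col9a1, which coats those fibrils, stood at 7.30 and 8.93 FPKM in HC and 41.4, 19.0 and 12.6 FPKM in SHAM, highest in SHAM replicate 1. Its call (adjusted p = 0.045) was lost without HC replicate 1 (0.14), HC replicate 2 (0.089), SHAM replicate 1 (0.058) or SHAM replicate 2 (0.083). The other 4 tested fibril collagens did not pass. Median-of-ratios scaling, quantile normalization, array weights and testing without a filter each ended the calls of Mmp13, Ctsk, Col2a1 and Col9a1. Quantile normalization also ended those of Ibsp and Dbp, testing without a filter those of Chad and Sost, and array weights those of Cxcl13, Ibsp, Sost, Ramp2, Il1r1, C4b, Cd28 and Sod3. The fit on the SHAM and HC libraries alone ended those of Col2a1, Col9a1, Ctsk, Prelp, Tnfrsf11b, Dbp, Pdk4 and Il1r1, and voom that of Col9a1.

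Aggrecan and most matrix partners stayed below the threshold. Acan stood at 350.3 and 460.2 FPKM in HC and 359, 284 and 356 FPKM in SHAM (log2 change -0.28, SE 0.19, adjusted p = 0.32), so that SHAM replicates 1 and 3 lay within the HC range. Comp, a matrix glycoprotein, stood at 981 and 1258 FPKM in HC and 1539, 1042 and 1027 FPKM in SHAM (log2 change 0.09), and its sign changed under 5 alternatives. Prg4, the lubricant of the joint surface, stood at 2072 and 4344 FPKM in HC and 2548, 1651 and 2291 FPKM in SHAM, with the HC libraries further apart than the SHAM libraries. Sox9, the transcription factor that keeps chondrocyte identity, stood at 18.0 and 21.8 FPKM in HC and 18.6, 17.7 and 12.9 FPKM in SHAM, and Frzb, a secreted Wnt antagonist, at 168 and 195 FPKM in HC and 154, 166 and 135 FPKM in SHAM. None of the 5 was called, and a p above the threshold does not show that levels were equal.

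Within the list of aggrecan, link proteins and adaptors 0 of 20 rose and 3 fell, with a median of -0.34. Without HC replicate 1, 5 fell and the median was -0.47, and without HC replicate 2, 1 fell and the median was -0.09. Chad, which ties chondrocytes to collagen, had the largest fall, at 8816 and 14454 FPKM in HC and 3033, 3101 and 4593 FPKM in SHAM (log2 change -1.69, SE 0.36, adjusted p = 0.01), with an adjusted p of 0.064 without HC replicate 2 and 0.089 without a filter on low values. Nov, a matricellular growth regulator, fell from 56.2 and 86.2 FPKM to 23.9, 23.2 and 30.4 FPKM (adjusted p = 0.0053). Prelp, which anchors basement membrane to collagen, fell from 847 and 1230.3 FPKM to 681, 512 and 639 FPKM, and lost its call without HC replicate 2 (adjusted p = 0.1) or SHAM replicate 2 (0.069). Lum, a small proteoglycan that spaces collagen fibrils, rose 2.77-fold, at 123 and 182 FPKM in HC and 408, 434 and 426 FPKM in SHAM. Itga10, the collagen receptor typical of chondrocytes, fell, at 78.5 and 117 FPKM in HC and 39.6, 36.0 and 44.7 FPKM in SHAM (log2 change -1.24, SE 0.18, adjusted p = 0.002).

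Sulfation genes were split. Slc26a2, the sulfate transporter whose loss causes chondrodysplasia, rose, at 12.7 and 16.5 FPKM in HC and 27.9, 25.6 and 25.6 FPKM in SHAM (adjusted p = 0.0028). Papss2, which activates that sulfate, fell, at 86.2 and 102 FPKM in HC and 64.0, 46.6 and 48.7 FPKM in SHAM (adjusted p = 0.0079). The other 15 of 17 tested genes of glycosaminoglycan synthesis did not pass, while 4 genes of that list rose without HC replicate 2 and 2 fell without HC replicate 1. In the fibrous matrix list 2 of 26 rose and 1 fell, with a median of 0.17. Without HC replicate 1, 2 rose and 4 fell, with a median of -0.14, and 1 rose with any 1 SHAM library left out. Col3a1, a collagen of fibrous tissue and scars, stood at 49.7 and 81.4 FPKM in HC and 252, 228 and 178 FPKM in SHAM (log2 change 1.75, SE 0.31, adjusted p = 0.0045). Thbs2, a matricellular inhibitor of vessel growth, fell 3.00-fold, at 196 and 192 FPKM in HC and 64.3, 60.6 and 69.2 FPKM in SHAM (log2 change -1.57, SE 0.14, adjusted p = 0.0002). Col1a1 did not pass, at 114 and 387 FPKM in HC and 853, 703 and 365 FPKM in SHAM, where HC replicate 2 lay above SHAM replicate 3.

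**Figure D4:**
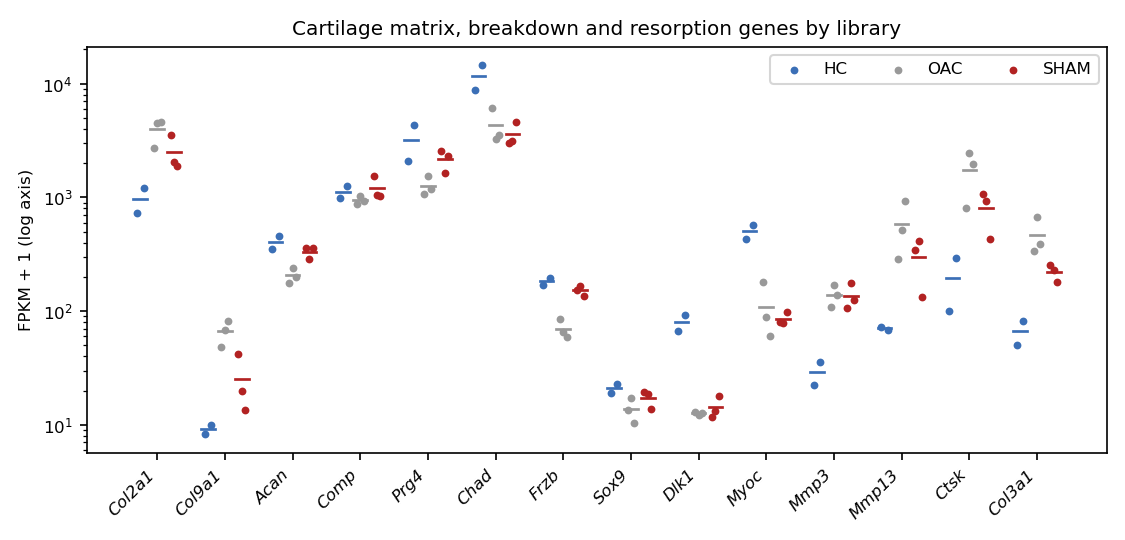
FPKM + 1 on a log axis for 14 genes of cartilage matrix, its breakdown and its resorption in the HC, OAC and SHAM libraries, with the group mean as a bar. Col2a1 and Col9a1 lie higher in SHAM than in HC, Dlk1, Myoc and Chad lie lower, and Acan, Comp and Sox9 overlap.

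The largest falls were in genes of diverse function. Cntfr, a receptor chain for ciliary neurotrophic factor, fell 8.88-fold, at 14.97 and 22.4 FPKM in HC and 1.29, 2.21 and 2.82 FPKM in SHAM (log2 change -2.67, SE 0.39, adjusted p = 0.0019). Myoc, a secreted glycoprotein, fell 5.93-fold, at 433 and 575 FPKM in HC and 79.9, 77.6 and 97.6 FPKM in SHAM (log2 change -2.55, SE 0.39, adjusted p = 0.0024). Dlk1, a Notch-related inhibitor of fat cell formation (NM_053744, chromosome 6 from 133576568 to 133583748 in rn6), fell 5.90-fold, at 66.1 and 91.8 FPKM in HC and 10.8, 12.3 and 17.0 FPKM in SHAM (log2 change -2.48, SE 0.31, adjusted p = 0.00092). Each was several times lower in all SHAM libraries than in either HC library. Penk, which encodes enkephalins, fell from 61.4 and 57.7 FPKM to 13.4, 9.68 and 15.5 FPKM, and Pld5, of the phospholipase D family, from 17.0 and 18.4 FPKM to 2.49, 1.68 and 3.48 FPKM. Igf2, a fetal growth factor, fell 3.84-fold, from 15.05 and 14.4 FPKM to 5.57, 2.45 and 3.48 FPKM.

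Growth factor pathways held more falls than rises among their called members. In the Wnt list 1 of 33 rose and 6 fell, and 3 fell without HC replicate 2 and 3 without SHAM replicate 2. After median-of-ratios scaling 12 fell. Notum, an enzyme that inactivates Wnt proteins, stood at 7.52 and 17.2 FPKM in HC and 1.15, 2.03 and 1.90 FPKM in SHAM (log2 change -2.23, SE 0.39, adjusted p = 0.0043), and Axin2, a target gene of Wnt signalling, at 6.28 and 7.92 FPKM in HC and 2.58, 2.93 and 3.12 FPKM in SHAM (adjusted p = 0.0032). In the BMP list 0 of 26 rose and 5 fell, with 1 without HC replicate 2, 3 without SHAM replicate 2 and 8 after median-of-ratios scaling. Nog, a BMP antagonist, was lower in each SHAM library, at 3.34 and 3.20 FPKM in HC and 1.52, 1.08 and 0.892 FPKM in SHAM.

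In the TGF-beta list 3 of 27 rose and 6 fell, and without HC replicate 2 the counts were 5 and 3. Inhba, a subunit of activin, rose 4.21-fold, at 2.54 and 3.23 FPKM in HC and 9.98, 16.0 and 10.4 FPKM in SHAM. Tgfbr3, the coreceptor betaglycan, fell 2.60-fold, at 55.5 and 85.9 FPKM in HC and 27.0, 26.4 and 28.2 FPKM in SHAM, and Smad3, which carries the signal, stood at 32.1 and 36.2 FPKM in HC and 18.0, 16.8 and 19.6 FPKM in SHAM (adjusted p = 0.00094). Tgfb1, the main ligand, did not pass at 40.3 and 47.5 FPKM in HC and 49.6, 35.7 and 44.4 FPKM in SHAM, nor did the receptor Tgfbr2 at 24.2 and 35.7 FPKM in HC and 46.5, 40.8 and 37.9 FPKM in SHAM. In the Klotho and FGF list 0 of 21 rose and 4 fell, among them the receptor Fgfr2 at 70.6 and 117 FPKM in HC and 51.1, 38.5 and 39.9 FPKM in SHAM, with 2 without SHAM replicate 3. Etv4, a factor that FGF signals induce, stood at 4.78 and 6.57 FPKM in HC and 1.81, 1.87 and 2.03 FPKM in SHAM. Kl, which encodes Klotho itself, stayed below 0.1 FPKM in all 5 libraries. It counts as tested only because libraries outside HC, SHAM and OAC raised its mean over all 10 to the filter of 0.5 FPKM.

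Clock genes, which oscillate through the day in cartilage, differed between the groups. Arntl, the activator also called Bmal1 (NM_024362, chromosome 1 from 178039063 to 178137471 in rn6), stood at 19.9 and 15.4 FPKM in HC and 2.77, 2.73 and 2.56 FPKM in SHAM, 6.56 times lower in SHAM (log2 change -2.33, SE 0.18, adjusted p = 0.00014). Npas2, a partner of Arntl, stood at 10.6 and 10.9 FPKM in HC and 1.85, 1.17 and 1.29 FPKM in SHAM, 7.51 times lower (log2 change -2.28, SE 0.21, adjusted p = 0.00027). Clock, its other partner, stood at 7.40 and 6.78 FPKM in HC and 4.56, 4.07 and 3.96 FPKM in SHAM (adjusted p = 0.0018). The SHAM values of these activators lay close together and below both HC values. The labels do not give the hour at which joints were collected, so hour and disease cannot be told apart.

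In the clock loop list 1 of 13 members rose and 3 fell, the 3 activators, and the count of higher members was 3 without HC replicate 2 and 0 with any 1 of the other 4 libraries left out. In the list of clock output genes 5 of 14 rose and 1 fell, and 3 rose without SHAM replicate 3. The output gene that fell was Pdk4, a kinase that restrains glucose oxidation, with a log2 change of -1.82 (adjusted p = 0.024), and its call was lost without HC replicate 1 (0.075, log2 change -0.84), SHAM replicate 1 (0.055) or SHAM replicate 2 (0.074). Ciart, a repressor that the activators induce, stood at 0.603 and 1.51 FPKM in HC and 3.04, 4.49 and 6.29 FPKM in SHAM (log2 change 1.44, SE 0.25, adjusted p = 0.0043). Dbp, an output factor, stood at 12.1 and 51.0 FPKM in HC and 74.6, 101 and 99.4 FPKM in SHAM, with HC replicate 1 far below HC replicate 2. Its call (adjusted p = 0.024) was lost without HC replicate 1 (0.061), SHAM replicate 2 (0.071) or SHAM replicate 3 (0.064), and its log2 change was 0.82 without HC replicate 1 and 2.81 without HC replicate 2. HC replicate 1 was also the lower HC library for Nr1d1, a repressor of Arntl, which did not pass at 40.9 and 96.3 FPKM in HC and 98.8, 61.3 and 72.9 FPKM in SHAM.

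The promoter windows of Arntl and Ciart, genes that moved in opposite directions, are shown because they hold the motifs below. In that of Arntl, listed in RefSeq as Bmal1 (chr1:176766078-176766377, plus strand, GRCr8), capitals mark TAGGTCA, the core to which Nr1d1 and the ROR receptors are known to bind. In that of Ciart (chr2:186112197-186112496, minus strand) capitals mark the E-box CACGTG, the binding letters of the Arntl and Clock pair.
Bmal1: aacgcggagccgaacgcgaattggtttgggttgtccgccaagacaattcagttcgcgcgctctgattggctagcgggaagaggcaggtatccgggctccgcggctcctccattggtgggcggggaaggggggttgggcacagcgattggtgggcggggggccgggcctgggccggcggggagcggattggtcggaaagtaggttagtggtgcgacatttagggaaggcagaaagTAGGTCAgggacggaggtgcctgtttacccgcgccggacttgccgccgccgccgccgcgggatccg
Ciart: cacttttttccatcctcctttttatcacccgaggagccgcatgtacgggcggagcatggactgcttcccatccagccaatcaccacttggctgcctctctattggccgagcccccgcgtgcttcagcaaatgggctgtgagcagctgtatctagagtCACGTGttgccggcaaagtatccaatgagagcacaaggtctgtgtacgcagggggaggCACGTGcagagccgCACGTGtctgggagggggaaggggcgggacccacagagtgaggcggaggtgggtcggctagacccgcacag
On both strands TAGGTCA was found in 2.63% of all 33469 windows, and CACGTG in 6.42%, and Ciart held 3 matches of the latter. TAGGTCA was in 1 of 11 windows of clock loop genes and 0 of 12 of clock output genes, and CACGTG was in 1 and 2 of them, so both printed windows were picked for their matches.

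**Figure D5:**
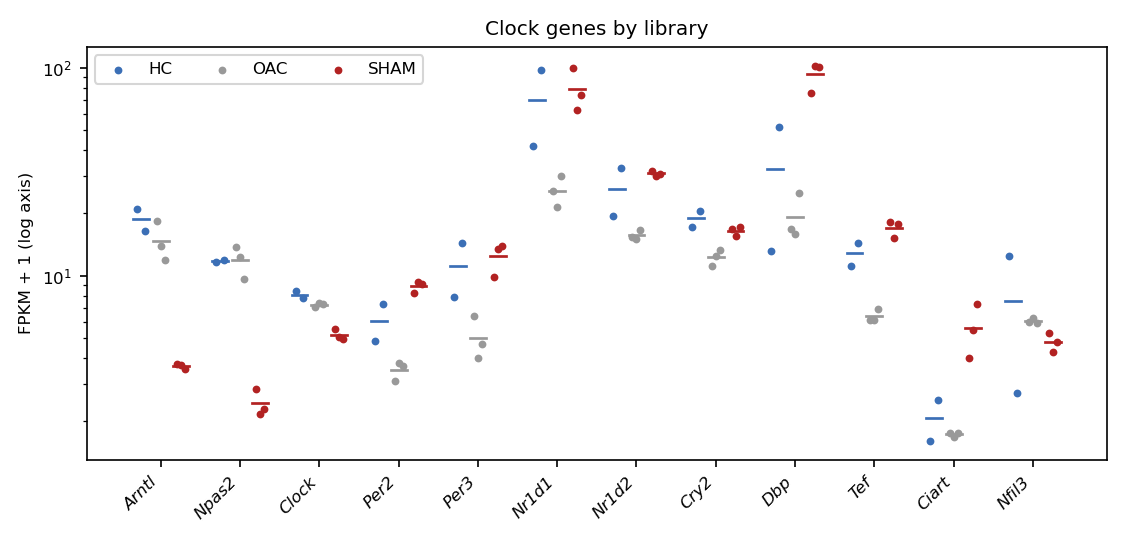
FPKM + 1 on a log axis for 12 clock genes in the HC, OAC and SHAM libraries, with the group mean as a bar. Arntl and Npas2 lie lower in SHAM than in HC and OAC, while Dbp, Ciart and Tef lie highest in SHAM.

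Genes of redox defence rose in part. In that list 11 of 22 rose and 1 fell. Sod2, the mitochondrial superoxide dismutase, stood at 58.1 and 35.5 FPKM in HC and 97.2, 133 and 92.8 FPKM in SHAM, and Txn1, a thioredoxin that reduces protein disulfides, at 108 and 94.2 FPKM in HC and 259, 265 and 234 FPKM in SHAM. The member that fell was Sod3, the extracellular superoxide dismutase abundant in cartilage, at 704 and 1127 FPKM in HC and 373, 400.3 and 507 FPKM in SHAM (log2 change -1.07, SE 0.26, adjusted p = 0.016), with an adjusted p of 0.084 without HC replicate 2 and 0.053 without SHAM replicate 2. Of 30 cholesterol genes 8 rose, and 3 without HC replicate 1, 5 without SHAM replicate 1 and 4 without SHAM replicate 2. As reported, 1 of the 30 fell, while over all tested genes 21.0% were higher and 5.48% lower. After median-of-ratios scaling, and also after quantile normalization, 4 cholesterol genes rose and 3 fell. Ch25h, which makes 25-hydroxycholesterol in macrophages, rose from 0.423 and 0.669 FPKM to 2.54, 3.14 and 2.49 FPKM. Srebf1, a lipid synthesis factor, fell 2.31-fold.

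Respiratory chain counts depended on which HC library was left out, HC replicate 1 being the library with the highest share of muscle reads. As reported 2 of 40 rose and 0 fell. Without HC replicate 1 the count of higher genes was 28, and without HC replicate 2 the count of lower genes was 32. In ribosomal protein genes 0 of 31 were called by limma (0 also by voom on recovered reads), 9 had an unadjusted p under 0.05, and the median change was 0.25. Among cell cycle inhibitors Cdkn1a and Cdkn2a, both linked to senescence, did not pass, at 17.4 and 11.5 FPKM in HC and 10.7, 8.09 and 13.9 FPKM in SHAM for the former and 0.144 and 0.108 FPKM in HC and 0.535, 0.925 and 0.636 FPKM in SHAM for the latter. The groups do not overlap for Cdkn2a, which passed with a pseudocount of 0.1 (adjusted p = 0.031) and with the SHAM and HC libraries alone (0.047), so its call depends on the setting.

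The late state was then set beside that at 4 weeks. SHAM and OAC share the HC libraries in their comparisons with health, so the changes are given side by side, and SHAM was tested against OAC directly. OAC differed from HC in 29.7% of tested genes, and SHAM differed from OAC in 131 genes, or 1.16%, 104 higher and 27 lower. SHAM and OAC differ in weeks since papain and in the GFP vector, which cannot be told apart. In the order of the authors' command, most OAC entries carry a tag (the letters NGS and a number) that no HC or SHAM entry carries. What the tag marks is not stated, and its part in the differences from OAC was not tested.

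The interferon-gamma and MHC genes stood apart between the intervals. In OAC, Ubd stood at 0.127, 0.927 and 0.257 FPKM and Cxcl9 at 1.004, 1.10 and 0.75 FPKM. Ubd was 5.37 higher in SHAM than in OAC on the log2 scale (adjusted p = 0.00014) and Cxcl9 4.83 (adjusted p = 0.00072). Of 18 interferon-gamma genes 12 were higher in SHAM than in OAC, as were 8 of 12 antigen processing genes and 13 of 22 MHC genes. The median change from HC in OAC was 0.42, 0.50 and 0.41 in these lists, against 2.04, 1.20 and 1.86 in SHAM. Part of these lists was already higher in OAC than in HC. Limma called 8 of 18 interferon-gamma genes, 6 of 12 antigen processing genes and 4 of 22 MHC genes higher there, and 0 lower. Cxcl13 stood at 3.11, 20.9 and 5.08 FPKM in OAC, below its HC level but not called lower than HC. It was 4.59 higher in SHAM than in OAC (adjusted p = 0.0081).

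Among other immune lists, 5 of 24 chemokines, 4 of 25 complement genes, 3 of 26 cytokine and NF-kB genes and 2 of 28 type I interferon genes were higher in SHAM than in OAC, and 0 were lower. Of the clock loop genes 3 of 13 were higher and 3 lower. Of the macrophage list 1 of 25 members, Fcgr1a, was called higher in SHAM than in OAC, and the median change from HC was 1.17 in OAC and 1.89 in SHAM. Limma's unadjusted p between SHAM and OAC was under 0.05 for 16 of the 25 macrophage markers. Limma called 0 of the neutrophil, erythroid, S phase, osteoclast or metalloproteinase genes tested between SHAM and OAC, and unadjusted p was under 0.05 for 2, 0, 0, 1 and 1 of them. Their medians from HC were 2.00 in OAC and 1.85 in SHAM for neutrophil genes, 1.35 and 1.20 for S phase genes, and 1.69 and 1.21 for metalloproteinases. Acan stood at 175, 239 and 200.2 FPKM in OAC, lower than in HC by 0.98 on the log2 scale, and its SHAM level was not called against either group. Frzb was called between SHAM and OAC, 1.13 higher in SHAM (adjusted p = 0.014) after 84.1, 64.8 and 58.4 FPKM in OAC.

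Arntl stood at 17.2, 12.9 and 10.9 FPKM and Npas2 at 12.8, 11.2 and 8.61 FPKM in OAC, both near HC, and both were lower in SHAM than in OAC, with log2 differences of -1.97 and -2.28 (adjusted p = 0.00057 and 0.00061). Nr1d1 and Tef were higher in SHAM than in OAC, by 1.61 (adjusted p = 0.0497) and 1.40 (adjusted p = 0.00061). Of 13 clock loop genes 5 were called lower in OAC than in HC and 0 higher, with a median of -0.36. Of 14 clock output genes 3 were called lower in OAC than in HC and 2 higher, with a median of -0.24. Nr1d1 did not pass between SHAM and HC. Tef was called higher in SHAM than in HC, a call lost without SHAM replicate 1 or 3 (adjusted p = 0.12 for each). Lyve1 was lower in SHAM than in OAC, with a log2 difference of -1.12 (adjusted p = 0.036), after 7.25, 6.28 and 6.58 FPKM in OAC.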

How the data were processed

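Messenger RNA of rat knee cartilage was sequenced in 10 libraries, of which the 3 SHAM, 2 HC and 3 OAC libraries bear on the report. The deposited table holds FPKM for 17419 transcripts, as the authors deposited them. Reads were counted over exons with HOMER for the comparison table, per the file headers, and how the FPKM were made is not given in the headers. STAR 2.5.3a, DESeq2 1.18.1, HOMER, FastQC 0.11.2 and the build rn6 are named in the submitters' processing notes. For pairs of groups, the authors' deposited comparisons hold p-values, raw and adjusted, and log2 fold changes that come from DESeq2, per the file headers. Since FPKM are not counts, the main test used no count model.

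Limma 3.58.1 in R 4.3.3 was run on log2(FPKM + 1) with an intensity trend, over the 4 groups of 10 libraries and without covariates, for the 11282 genes that average 0.5 FPKM or more. This scale understates changes of low genes. Tests were two-sided. FPKM multiplied by transcript length came out as whole reads within 0.15 of a read for 100% of the values checked, all from short transcripts, and those recovered reads gave the depths and a voom fit. The fit was tested on simulated data with genes changed by known amounts.

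Genes were named by rule: 15 rising and 15 falling genes, those with the largest called changes whose libraries do not overlap and whose higher group averages 1 FPKM or more, up to 4 called members of each list, and 31 further genes of interest. The rule gave 213 genes, of which the text describes a part, and 35 genes named in the text lie outside it and were chosen after their values were seen. Some genes whose sign or call changed under an alternative were left out of the text after that was seen, so the genes described are not a sample of how stable calls are. The 62 gene lists, the genes and the rule for naming them were chosen with earlier results of these data known. Lists are described by counts and medians with no test, and those with 10 or more members called, whose counts were followed through the alternatives, were picked after seeing the data, as were the printed promoters and motifs. Alternatives were other pseudocounts, filters, scalings and fits, a replicate block, and each of the 5 libraries left out. A fit without HC replicate 1 and SHAM replicate 3 was added after seeing the data. The tags in the authors' command cannot be tied to single libraries, so no value within a tag is given. Some genes of the lists are not reported here by name.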

Additional observations from a re-analysis of the deposited data

Results flagged for a closer look

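For 14 of the 15 rising and 15 falling genes with the largest changes, the change from HC differed between 10 and 4 weeks. The test was limma's of SHAM against OAC (the same difference, since both changes share HC), two-sided, with Benjamini-Hochberg adjusted p under 0.05. These genes were picked by their change from HC in the same SHAM libraries, which favours a difference from OAC. The difference in log2 change was 5.37 for Ubd (adjusted p = 0.00014), 4.83 for Cxcl9, 3.85 for Cxcl10, 3.56 for Cxcl11, 3.22 for Gbp2 and 2.69 for Igtp. It was 1.96 for Il18, 1.87 for Pla2g2d, 1.87 for Psmb9, 1.73 for C1s and 1.72 for C4a. In each of these genes all 3 SHAM libraries lay above all 3 OAC libraries. The row of the microRNA Mir147 differed by 1.80, and it lies inside MGC105649, which differed by 1.79, so reads of the messenger libraries cannot be told apart between them. Arntl and Npas2 differed in the other direction, by -1.97 (adjusted p = 0.00057) and -2.28 (adjusted p = 0.00061), with all 3 SHAM libraries below all OAC libraries. SHAM and OAC also differ in the GFP vector and, for most OAC entries, in the tag of the authors' command.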

How the results depend on the processing

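The count of 2986 changed genes stayed within 1.5 times of itself except with the SHAM and HC libraries alone (1970), array weights (1628) and a replicate block (1951), and lay between 1968 and 2961 with 1 library left out, lowest without SHAM replicate 2. Genes higher numbered 1387 with array weights. Genes lower numbered 1251 with median-of-ratios scaling, 1227 with quantile normalization, 936 with voom, 320 with the SHAM and HC libraries alone, 241 with array weights, 307 with the block, and 345 to 923 with 1 library left out. Higher genes were 79.3% of those called, against 57.3%, 56.4% and 64.4% under the first 3 of those settings. The block ended the calls of Col2a1, Col9a1, Prelp, Mmp13, Ctsk, Ibsp and Sod3 among the genes described, and leaving out both muscle-rich libraries (an alternative chosen after seeing the data) those of Col2a1, Col9a1, Mmp13, Ctsk, Ibsp, Cxcl13, Ramp2, Dbp, Pdk4 and C4b. Deviations from the group means of HC and SHAM correlated at -0.479 for the libraries numbered 1 and 0.486 for those numbered 2. With only 2 HC libraries, their deviations are mirror images of each other, so these values cannot show if the numbers pair libraries. Listed members called numbered 424, and 306 to 434 over the alternatives. Osteoclast members called numbered 5 with array weights and with the block, 4 without both muscle-rich libraries, and 4 to 11 with 1 left out. Type I interferon members numbered 9 with quantile normalization, 8 with array weights and 8 to 17 with 1 left out. Cytokine and NF-kB members numbered 11 without both muscle-rich libraries, and erythroid members 10 to 21 with 1 left out. T and NK members numbered 11 with the filter of 2 FPKM, 12 with quantile normalization, 9 with array weights, 11 without both muscle-rich libraries and 12 to 16 with 1 left out. B and plasma members numbered 9 with array weights and 8 without both muscle-rich libraries. Among genes the sign turned, in log2, for Prg4 without HC replicate 2 (0.038, from -1.029 with 1 other library left out), for Comp with median-of-ratios (-0.067), quantile (-0.299) and voom (-0.016) and without HC replicate 1 (-0.091) or SHAM replicate 1 (-0.102, up to 0.268 with 1 other left out), for Adamts4 with quantile (-0.014) and for Adamts5 without HC replicate 2 (0.009, down to -0.323). It turned for Runx2 without HC replicate 2 (0.168) or SHAM replicate 2 (0.003, down to -0.328) and for Tgfb1 without the same libraries (0.085 and 0.098, down to -0.144). It turned for Vegfa with median-of-ratios (-0.116), quantile (-0.211) and voom (-0.069), without HC replicate 1 (-0.092) or SHAM replicate 1 (-0.048), and without both muscle-rich libraries (-0.009). Without HC replicate 1 it turned for Myh4 (3.263, down to -7.108 without HC replicate 2) and Nr1d1 (-0.335, up to 0.879 without HC replicate 2), and without both muscle-rich libraries they stood at 0.905 and -0.304. The cause of these shifts was not tested. Of the 196 called genes among the 213 named by rule, 135 lost the call under no alternative. The 54 that lost it with 1 library left out and the 60 that lost it under another alternative overlap. Among those other alternatives is the fit without both muscle-rich libraries.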
